A study of Arabidopsis thaliana with 12 samples.

Results

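The red light response of the Arabidopsis thaliana double mutant b''ab''b was taken as the difference between its 3 libraries given red light and its 3 libraries kept in darkness. These are 6 of the 12 libraries of the study, and all 33655 genes of the count table entered, of which 18487 had enough counts to be tested. The mutant's name refers to B''α and B''β, which steer the enzyme PP2A (protein phosphatase 2A, which removes phosphate from proteins) to its targets. Seeds were kept cold for 3 days on medium without sucrose and then lit with white light of 25 µmol for 3 h. They then grew for 4 days in darkness at 22 °C, and whole seedlings were taken either directly or after 1 h of continuous red light of 8 µmol. The other 6 libraries came from wild type Col-0 treated in the same way, so all groups share the white light pulse and the sugar-free medium. Whether the 3 replicates came from separate cultures is not stated in the labels, and p-values then reflect only how these libraries vary, which may be technical.

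Red light is sensed by the phytochromes, receptors that enter the nucleus once activated and lead to the removal of phytochrome-interacting factors (PIFs). PIFs are bHLH transcription factors that keep seedlings in the dark programme of fast stem growth, closed cotyledons and undeveloped plastids, while COP1 and its SPA partners mark light-promoting factors such as HY5 for destruction. In light HY5 accumulates, genes of chloroplast, pigment and clock function are transcribed, and growth genes of the dark programme are turned down.

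The 6 mutant libraries held 2874429 to 4773926 counts, and CPM below are counts scaled to a common library total. The upper limit set by a count of 0 (3 counts) lies at 0.628 to 1.04 CPM and covers counting error only. The B''α gene (AT5G44090) stood at 3.88 to 6.29 CPM in the mutant libraries against 24.4 to 31.2 CPM in the wild type, and the B''β gene (AT1G03960) at 0.749 to 2.06 CPM against 1.96 to 4.96 CPM. The values of B''β overlap between the genotypes and rest on 3 to 20 counts per library. The first principal component of the mutant libraries carried 55.6% of the variance and separated red light from darkness. Dark replicate 3 stood apart on the second component (14.9%), and without that library 1758 genes rose and 787 fell, against 1983 and 975 with it. The drop was not particular to that library, since leaving out any other mutant library gave 1678 to 1873 rises and 686 to 837 falls. Every member of 8 marker lists for root, root hair, endodermis, vascular tissue, epidermis, guard cells, dividing cells and seed stage had counts in at least 1 mutant library, and 5 of their 73 tested members rose, 3 of 9 for epidermis, 1 of 10 for endodermis and 1 of 9 for vascular tissue, against 10.7% risers among all genes. Without dark replicate 3 there were 2 risers, both of epidermis, and 4 fallers, and the rises of endodermis (SCR) and vascular tissue (APL) were lost in 10 and 6 of 22 alternative settings. Their summed levels overlapped between darkness and red light except for epidermis, at 1687 to 1765 CPM in darkness and 1964 to 2019 CPM in red light. Seed-stage markers were uneven within groups, with 85.1 CPM in dark replicate 1 against 7.64 and 8.29 CPM in the other dark libraries and 10.5 to 40.4 CPM in red light. The part of these differences in the results below was not tested, and in whole seedlings more cells of a type and more RNA per cell cannot be told apart.

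Promoter windows of 7 responding genes are printed because the genes have different roles and their windows hold some of the motifs counted here. CCA1, LNK3 and PRR9 belong to the clock, F3H makes flavonoids, ELIP1 protects greening plastids, HSFA2 is a heat shock factor, and DIN1 is a dark-inducible gene that fell. Each window is the 300 bases before the annotated gene start, 5′ to 3′ on the gene's own strand, from the TAIR10.1 RefSeq genome. Capitals mark the G-box CACGTG in the first 6 windows, the I-box GATAAG (on either strand) in ELIP1 and DIN1, and a pair of heat shock units GAANNTTC in HSFA2.
CCA1 (chr2:19245291-19245590, plus strand): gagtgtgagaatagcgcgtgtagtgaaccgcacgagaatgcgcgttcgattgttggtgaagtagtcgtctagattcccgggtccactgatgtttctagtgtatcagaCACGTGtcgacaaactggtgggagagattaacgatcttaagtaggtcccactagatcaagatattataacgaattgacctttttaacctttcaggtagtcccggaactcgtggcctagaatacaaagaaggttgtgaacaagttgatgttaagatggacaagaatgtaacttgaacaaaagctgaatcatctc
LNK3 (chr3:3923215-3923514, plus strand): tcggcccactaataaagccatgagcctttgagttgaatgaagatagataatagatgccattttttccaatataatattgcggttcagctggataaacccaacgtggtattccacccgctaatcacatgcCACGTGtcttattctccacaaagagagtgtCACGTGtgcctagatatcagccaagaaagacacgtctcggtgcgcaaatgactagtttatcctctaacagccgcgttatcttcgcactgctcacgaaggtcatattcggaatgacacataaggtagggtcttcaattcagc
PRR9 (chr2:19232307-19232606, plus strand): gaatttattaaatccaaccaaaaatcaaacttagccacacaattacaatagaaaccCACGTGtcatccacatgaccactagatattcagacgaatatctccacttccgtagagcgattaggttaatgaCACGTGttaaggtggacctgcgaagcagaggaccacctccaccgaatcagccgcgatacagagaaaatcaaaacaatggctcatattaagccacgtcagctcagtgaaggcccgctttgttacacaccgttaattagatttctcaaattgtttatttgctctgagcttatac
F3H (chr3:19024892-19025191, plus strand): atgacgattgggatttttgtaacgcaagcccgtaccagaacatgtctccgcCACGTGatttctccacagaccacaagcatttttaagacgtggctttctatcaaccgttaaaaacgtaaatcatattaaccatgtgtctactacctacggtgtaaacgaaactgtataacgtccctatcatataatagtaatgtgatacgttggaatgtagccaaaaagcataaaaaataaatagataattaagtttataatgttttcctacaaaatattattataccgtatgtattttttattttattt
ELIP1 (chr3:8085670-8085969, minus strand): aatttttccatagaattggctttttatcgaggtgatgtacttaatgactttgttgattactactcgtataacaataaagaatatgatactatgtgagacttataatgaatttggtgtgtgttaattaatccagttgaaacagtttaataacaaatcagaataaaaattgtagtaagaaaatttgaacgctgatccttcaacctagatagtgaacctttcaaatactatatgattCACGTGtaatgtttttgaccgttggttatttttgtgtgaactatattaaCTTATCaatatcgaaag
HSFA2 (chr2:11135324-11135623, plus strand): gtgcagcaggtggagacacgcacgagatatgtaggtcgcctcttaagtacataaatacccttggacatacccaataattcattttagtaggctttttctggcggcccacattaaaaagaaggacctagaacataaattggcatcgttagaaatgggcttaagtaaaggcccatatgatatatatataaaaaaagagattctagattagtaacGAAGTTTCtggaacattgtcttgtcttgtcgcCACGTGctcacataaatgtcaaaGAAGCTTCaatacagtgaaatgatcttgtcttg
DIN1 (chr4:16944578-16944877, plus strand): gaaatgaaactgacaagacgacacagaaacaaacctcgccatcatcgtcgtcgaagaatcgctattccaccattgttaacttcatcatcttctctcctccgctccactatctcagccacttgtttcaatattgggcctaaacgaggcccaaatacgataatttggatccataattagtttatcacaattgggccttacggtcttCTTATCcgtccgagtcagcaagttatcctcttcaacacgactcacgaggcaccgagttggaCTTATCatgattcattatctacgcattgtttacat

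Motifs were searched on both strands in the same window of 18474 tested genes, and no match printed above overlapped another. The G-box, which HY5 and PIFs are known to bind, was present in 7.96% of all windows, 15.3% of the windows of genes that rose by at least 1 on the log2 scale, and 6.64% of those that fell by as much. Among 24 clock genes 10 held it (41.7%). The I-box was present in 14.9% of all windows, 15.5% of the risers and 15.9% of the fallers. With called changes of any size it was in 14.2% of 1983 risers and 17.8% of 975 fallers. The heat shock pair was present in 11.2% of all windows and in 5 of 18 heat shock genes (27.8%). The related PBE-box CATGTG, another site of PIFs, was present in 13.2% of all windows, 16.1% of the risers and 16.4% of the fallers. The evening element AAAATATCT was present in 2.85%, 4.06% (29 genes) and 3.1% (7 genes) of these, and in 5 of 24 clock genes (20.8%). With called changes of any size the order was reversed, at 2.98% of 1983 risers and 4.62% of 975 fallers. For the CCA1-binding site AAAAATCT the shares were 8.02% of all windows, 8.96% of risers and 6.64% of fallers by at least 1, and 12.5% for the clock genes. With changes of any size they were 9.03% of risers and 8.82% of fallers. The shares of single lists given here were picked from 49 lists. The share of a group of genes can depend on the window: of 23 photosystem genes 21.7% held a G-box before the start, and 47.8% did in a window from 250 bases before to 50 bases after it. In that shifted window the I-box was held by 15.2% of all genes, 16.9% of those that rose by at least 1 and 19.9% of those that fell by as much.

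After 1 h of red light 2958 genes differed from darkness in the double mutant, 16.0% of those tested (edgeR quasi-likelihood test, Benjamini-Hochberg adjusted p under 0.05). Of these, 1983 rose (10.7%) and 975 fell (5.27%). Most changes were small: 714 genes (3.86%) rose and 226 (1.22%) fell by at least 1 on the log2 scale, 173 rose and 37 fell by at least 2, and 61 rose and 6 fell by at least 3. The median change was 0.76 among the risers and −0.67 among the fallers, beside −0.01 over all genes tested. Dark and red libraries did not overlap for 2903 of the called genes, while they did not overlap for 5592 genes (30.2%) in all. Calls were more frequent at higher levels, from 6.99% of the lowest of 4 equal classes of genes by mean CPM to 27.0% of the highest. By chromosome, calls took 15.0 to 16.8% of the tested genes.

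**Figure D1:**
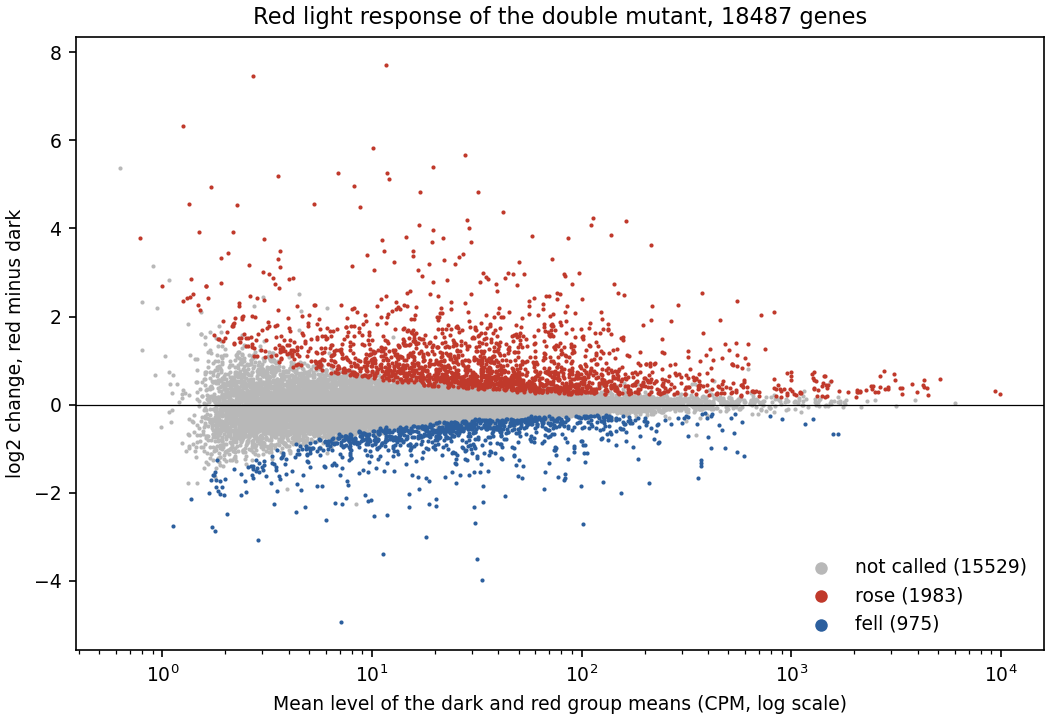
Each point is 1 of 18487 tested genes, with its mean level in the double mutant on a log axis in CPM and its log2 change (red minus dark) on the other, red where it rose, blue where it fell and grey where it was not called. The 1983 risers outnumber the 975 fallers, and small changes are called only at higher levels.

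The genes that rose took 24.9 to 26.4% of all counts in the dark libraries and 33.9 to 34.4% in the red ones, and the genes that fell went from 6.91 to 7.04% down to 4.15 to 4.20%. Such a shift bears on scaling. With TMM factors 67.0% of the calls were rises, while with raw library totals 1517 genes rose and 2342 fell (39.3% rises) and the median of all genes moved from −0.01 to −0.15. Changes below are those with TMM factors.

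Among genes whose log2 CPM averaged 3 or more over the 12 libraries, the largest rises concerned B-box factors, a clock gene, a chaperone and enzymes of the cell wall, and rises of less abundant genes such as HSFA2 and GA2OX1 (given below) exceeded most of them. BBX32 (AT3G21150), a B-box protein known to repress light signalling, stood at 1.36, 0.899 and 0.987 CPM in darkness and 63.4, 44.9 and 55.7 CPM in red light, a rise of 5.67 ± 0.25 (log2 ± SE, adjusted p 4.83e-14). The SE is approximate and can be too small for large changes from few counts. BBX16 went from 1.70, 2.70 and 1.97 CPM to 69.6, 58.4 and 57.4 CPM, a rise of 4.82 ± 0.18. Every red library lies above every dark one for both genes, which the choice of these genes required. LNK1, a coactivator of morning clock transcription, went from 5.76, 3.82 and 2.57 CPM to 79.7, 82.2 and 77.9 CPM, a rise of 4.38 ± 0.17. HSP70 (AT3G12580), a cytosolic chaperone, went from 11.9, 13.03 and 9.28 CPM to 216, 212 and 214 CPM, a rise of 4.25 ± 0.11 (edgeR adjusted p 1.55e-17).

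ABCI21, an ABC transporter subunit of the NAP group, went from 14.6, 18.2 and 18.2 CPM to 297.0, 318 and 313 CPM, a rise of 4.16 ± 0.10 (edgeR adjusted p 3.07e-18). It lies 5432 bases from the B''α gene on chromosome 5, and a link to that position was not tested. In the wild type ABCI21 rose by 3.97 ± 0.10. AT3G56290, annotated as a potassium transporter, went from 19.0, 17.1 and 17.8 CPM to 263, 254 and 262 CPM. The pectin lyase-like genes AT1G48100 and AT1G60590 rose by 4.20 ± 0.19 and 4.08 ± 0.25. AT1G07477, a non-coding RNA, rose by 4.01 ± 0.17, but it shares 802 bases with AT1G48100 on the opposite strand, and since the sources used here do not give the strand setting of the counting, reads of the pair cannot be told apart. AT1G55960, of a lipid transport family, and AT3G52740 rose by 4.08 ± 0.12 and 3.96 ± 0.23. SIGE (SIG5), a sigma factor that directs the plastid RNA polymerase, went from 8.82, 7.42 and 7.11 CPM to 110.1, 112 and 103 CPM, a rise of 3.82 ± 0.15.

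At the same level limit, the largest falls concerned transcription factors and growth regulators, while BBX23 and PIL1, below that limit, are described with their families. GRF7, a growth-regulating factor, stood at 56.3, 61.4 and 70.7 CPM in darkness and 4.58, 3.05 and 4.24 CPM in red light, a change of −3.97 ± 0.17 (edgeR adjusted p 3.76e-14). TZF5, a tandem CCCH zinc finger protein, went from 53.6, 59.3 and 61.0 CPM to 3.89, 5.54 and 5.99 CPM. RAV1, an AP2/B3 factor that restrains growth, went from 165, 175 and 185 CPM to 27.0, 28.5 and 25.2 CPM, a change of −2.70 ± 0.09. No library of one condition reached the range of the other for these genes, which their choice required. RTFL21, of the ROTUNDIFOLIA-like peptides, changed by −3.0 ± 0.21, the B-box factor BBX17 by −2.68 ± 0.15, the homeodomain factors HB52 and ATHB2 by −2.32 ± 0.18 and −2.25 ± 0.22, and the bHLH gene AT3G21330 by −2.51 ± 0.22. The SAUR-like gene AT3G53250, the kinase-like gene AT1G60060, and AT5G02580 and AT4G35720 of unknown role, changed by −2.21 to −2.53.

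**Figure D2:**
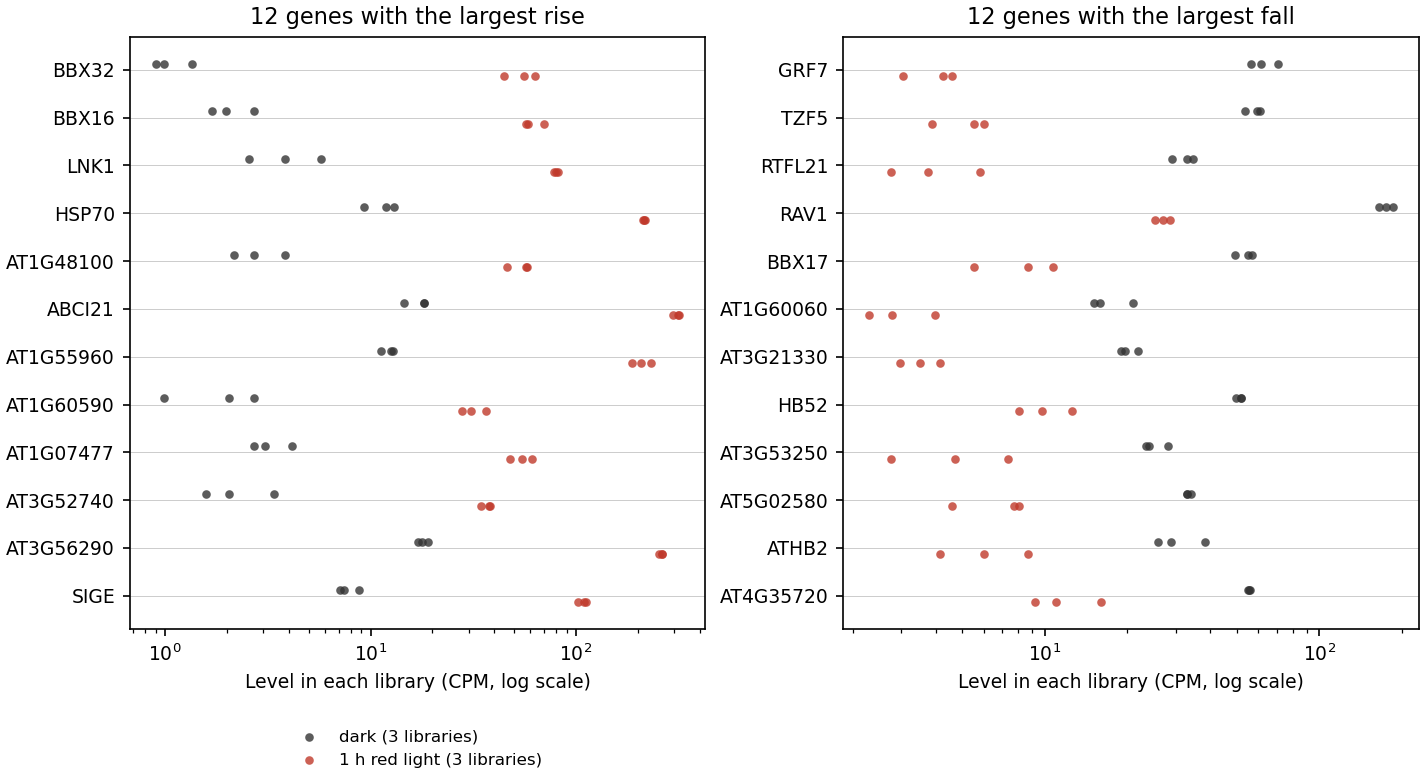
Points give the level in each library (CPM, log axis) of the 12 genes with the largest rise and the 12 with the largest fall among called genes of sufficient level, grey for darkness and red for 1 h of red light, 3 libraries each. The 2 conditions do not overlap for any of them, which the choice of these genes required.

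The list counts from here on stand beside 10.7% risers and 5.27% fallers among all genes tested. The lists and their members were chosen with earlier results of these data known, so these counts describe the lists and test nothing. Among the receptors and early signalling genes, the falls concerned phytochrome A and its import factors. PHYA, the receptor that dominates in darkness, stood at 512, 568 and 595 CPM in darkness and 359, 385 and 377 CPM in red light, a change of −0.58 ± 0.07 (edgeR adjusted p 1.43e-06). FHY1, which carries phytochrome A into the nucleus, went from 47.5, 52.8 and 58.2 CPM to 13.3, 18.6 and 12.98 CPM, a change of −1.84 ± 0.14. Of the 9 tested genes for phytochromes and their import 2 rose and 3 fell. The rises, PHYB (0.55 ± 0.17, adjusted p 0.0273) and PHYE (0.54 ± 0.16, adjusted p 0.0234), did not pass without dark replicate 3 (0.39 and 0.35, adjusted p 0.159 and 0.185), nor without dark replicate 2 or red replicates 1 or 3. The fall of FHL, a relative of FHY1, did not pass without dark replicate 2 or red replicate 3 (−0.95 and −0.68, adjusted p 0.0637 and 0.113).

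Several PIF proteins are known to be degraded in red light, while most PIF transcripts tested here rose. Of 7 tested PIF genes 4 rose and 1 fell, with a median change of 1.59. PIF5 went from 24.7, 24.5 and 23.9 CPM to 98.7, 97.5 and 101 CPM, a rise of 2.02 ± 0.10 (edgeR adjusted p 3.09e-13). PIF8, PIF4 and PIF7 rose by 1.77 ± 0.14, 1.59 ± 0.14 and 1.79 ± 0.35. PIF3 went from 42.7, 50.3 and 56.3 CPM to 33.4, 36.6 and 33.5 CPM, a change of −0.55 ± 0.11.

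HY5, its relative HYH and several of their repressors rose together. HY5, the bZIP factor that promotes light development, went from 28.5, 31.5 and 34.9 CPM to 149.8, 179.7 and 175.5 CPM, a rise of 2.40 ± 0.10 (edgeR adjusted p 1.10e-14). HYH rose by 1.63 ± 0.10. RUP1 and RUP2, WD40 proteins that switch off the UV-B receptor, rose by 2.99 ± 0.13 and 3.25 ± 0.13, and RUP2 went from 11.2, 8.76 and 9.28 CPM to 95.5, 90.0 and 88.1 CPM. Of 12 genes in this list 8 rose and none fell, with a median of 1.66. COP1, SPA1, SPA3 and SPA4 were among the 8 (1.10 to 1.94), while DET1, COP10, SPA2 and DDB1A had changes of −0.15 to 0.11 and were not called.

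Blue light receptors and their partners were called in both directions, 5 rising and 2 falling of 12 tested out of 13 listed. CRY3, a cryptochrome of organelles, went from 27.1, 35.1 and 26.6 CPM to 148, 132 and 138 CPM. RPT2, a phototropism adaptor, went from 224, 193 and 159 CPM to 693, 767 and 703 CPM. The receptors of phototropism moved in opposite directions, PHOT2 by 0.74 ± 0.08 (edgeR adjusted p 2.91e-07) and PHOT1 by −0.70 ± 0.08 (adjusted p 7.07e-07). PKS1, a phytochrome kinase substrate, rose by 2.47 ± 0.11.

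The B-box family split widely. Of 26 tested members 13 rose and 8 fell, and changes ran from −4.95 for BBX23 to 5.67 for BBX32, leaving out BBX30 with 1 dark count, beside calls at 16.0% of all genes. BBX24, which restrains HY5 activity, went from 101, 92.1 and 102 CPM to 478, 476 and 474 CPM, a rise of 2.27 ± 0.07 (edgeR adjusted p 1.51e-16). BBX18 rose by 3.43 ± 0.17, and CONSTANS-like COL2 by 1.54 ± 0.08. BBX30, a microprotein of the family, had 1 count over the 3 dark libraries and 280 counts over the 3 red ones (23.1, 22.7 and 24.2 CPM), a ratio of 291 with a 95% counting interval of 51.8 to 11540. Other risers, named here after their values were seen, were BBX31 (5.13), BBX29 (3.05), BBX25 (2.06) and BBX22 (1.70), and other fallers BBX20 (−1.79), COL9 (−1.33), BBX27 (−1.22) and BBX21 (−0.97). BBX23 went from a mean of 13.8 CPM in darkness to 0.382 CPM in red light. CO, COL3, COL4, COL5 and BBX15 lay between −0.23 and 0.18 and were not called.

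Shade and growth genes, many of them activated by PIFs, mostly fell. Of 16 tested shade and HD-ZIP II genes (17 listed) 9 fell and 2 rose, with a median of −0.70. PIL1, a bHLH gene used as a marker of PIF activity, went from 24.1, 20 and 18.2 CPM to 2.06, 1.94 and 1.75 CPM, a change of −3.40 ± 0.26 (edgeR adjusted p 6.85e-10). ATHB2 (HAT4), an HD-ZIP II factor of shade avoidance, went from 38.3, 25.8 and 28.8 CPM to 8.70, 4.15 and 5.99 CPM. XTH15, which remodels wall xyloglucan, went from 529.7, 514 and 537 CPM to 221, 236 and 173 CPM. PAR1, a growth repressor, also fell (−1.91 ± 0.10), as did ST2A, a sulfotransferase (−1.60 ± 0.16). HFR1 and BIM1 were the 2 risers, at 0.50 and 0.56.

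Growth-regulating factors, RAV and tandem zinc finger genes fell in 13 of 22 tested cases (24 listed), 9 of them by at least 1, with 1 rise and a median of −0.78. GRF7, TZF5 and RAV1, among the largest falls above, are members of this list, so its count is not independent of them. Beside GRF7, TZF5 and RAV1, TEM1 went from 81.0, 77.5 and 79.0 CPM to 22.7, 25.5 and 26.2 CPM, a change of −1.68 ± 0.11 (edgeR adjusted p 2.11e-11). TEM1 is a RAV-type repressor of flowering. TZF1 changed by −1.71 ± 0.11. Within the families members differed: GRF2, GRF1 and GRF3 fell (−0.76 to −1.64), whereas GRF4, GRF5, GRF6 and GRF9 had changes of −0.29 to 0.59 that were not called. GIF1, the coactivator that GRFs work with, was the 1 riser (0.63).

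Clock genes of morning and evening rose together. Of 24 tested 17 rose and 1 fell, with a median of 1.47. CCA1, a MYB factor at the core of the clock, went from 53.9, 48.1 and 48.2 CPM to 162, 180.3 and 159.5 CPM, a rise of 1.75 ± 0.09 (edgeR adjusted p 4.28e-13). LNK2, LNK3 and LNK4 rose by 1.62 ± 0.08, 2.71 ± 0.14 and 2.97 ± 0.13, so all 4 LNK genes were called. PRR9, a repressor of CCA1, had no count in any dark library and 6.64, 5.26 and 4.24 CPM in red light, which is at least 22.5-fold higher against a floor of 3 counts over the dark group. Others that rose, named after their values were seen, were GI (3.37), the RVE genes RVE7 (3.20), RVE8 (1.48) and RVE1 (1.45), PRR7 (2.57), PRR5 (2.02), ELF4 (1.86), LUX (1.14) and LHY (0.92). TOC1, ELF3, TIC and CHE had changes of 0.06 to 0.14 and were not called. The 1 fall, of BOA (−0.50), was lost in 14 of 22 alternative settings, among them the omission of dark replicates 2 or 3 or red replicates 1 or 2.

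Genes of the photosynthetic apparatus rose, mostly by less than 1 on the log2 scale. Of 21 antenna protein genes 20 rose, of 23 photosystem subunits 21, of 12 electron carriers and ATP synthase genes 12, and of 18 Calvin cycle and Rubisco genes 17, with medians of 0.43, 0.36, 0.40 and 0.40 and no fall, beside 10.7% risers among all genes. With raw library totals the risers were 16, 18, 8 and 13 and the medians 0.297, 0.22, 0.264 and 0.268. LHCA1, of the photosystem I antenna, stood at 2592, 2316 and 2117 CPM in darkness and 3868, 3851 and 3676 CPM in red light, a rise of 0.70 ± 0.06 (edgeR adjusted p 6.50e-09). LHCB3, of the photosystem II antenna, went from 2650, 2384 and 2558 CPM to 3628, 3871 and 3724 CPM. The dark and red libraries of both genes are separate although the change is under 1 on the log2 scale. The rises of LHCB4.3 (1.16 ± 0.11) and LHCB7 (1.40 ± 0.21) were larger. PSBR and PSAK rose by 0.40 ± 0.05 and 0.41 ± 0.05, and PSBS, which triggers heat dissipation, by 0.72 ± 0.07. The copies LHCB1.1, LHCB1.2 and LHCB1.3 and the RBCS genes are nearly identical, so how reads were split among them is uncertain.

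Some enzymes and carriers rose more. FBA1, a plastid aldolase, went from 291, 263 and 249 CPM to 710.1, 687 and 686 CPM, a rise of 1.38 ± 0.07 (edgeR adjusted p 3.10e-13). CP12-2, a regulator of Calvin cycle enzymes, rose by 1.35 ± 0.08, and ferredoxin FD1 by 1.14 ± 0.06, from 365, 322 and 352 CPM to 753, 757 and 769 CPM. Rubisco activase RCA rose by 0.65 ± 0.07. RBCS1A, a small subunit of Rubisco, had 9336, 8468 and 9370 CPM in darkness and 9639, 11340 and 10990 CPM in red light. Its rise of 0.23 ± 0.06 (adjusted p 0.00986) did not pass without dark replicate 2 or red replicate 2 (0.19 and 0.18, adjusted p 0.0691 and 0.0846) or with raw library totals (0.10).

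The light stress proteins related to the antenna rose in 7 of 10 cases with a median of 0.72. ELIP1, an early light-induced protein, went from 339, 328 and 267 CPM to 1386, 1305 and 1311 CPM, a rise of 2.10 ± 0.09 (edgeR adjusted p 2.46e-14). ELIP2 and SEP2 rose by 1.40 ± 0.07 and 1.85 ± 0.09. Of 10 greening factors 6 rose. CGA1, a GATA factor of chloroplast development, went from 3.05, 3.60 and 1.78 CPM to 29.3, 40.4 and 37.7 CPM, GLK2 rose by 1.71 ± 0.09 and GNC by 0.99 ± 0.10. SIGC rose by 0.75 ± 0.13, while the other sigma factors SIGA, SIGB, SIGD and SIGF lay between −0.17 and 0.25 and were not called.

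Chlorophyll synthesis was called at a few steps. Of 29 tetrapyrrole genes 8 rose, 3 fell and 18 were not called, with a median of 0.09, beside 10.7% risers and 5.27% fallers among all genes. HEMA1, the first committed enzyme, went from 307, 279 and 305 CPM to 489, 493 and 493 CPM, and CHLH, the large subunit of magnesium chelatase, rose by 0.74 ± 0.07 (edgeR adjusted p 1.24e-08). The ferrochelatases FC1 and FC2 of the haem branch rose by 1.33 ± 0.22 and 0.84 ± 0.13. The protochlorophyllide reductases, which need light to act, fell: PORA went from 1922, 2008 and 1906 CPM to 1357, 1137 and 1166 CPM (−0.67 ± 0.07, adjusted p 1.28e-07) and PORB changed by −0.66 ± 0.07. PORC rose by 0.42. Of 22 carotenoid and plastid isoprenoid genes 8 rose, 5 without dark replicate 3, without red replicate 2 or with raw library totals. ZEP, zeaxanthin epoxidase, rose by 1.79 ± 0.11, the hydroxylases BCH2 and BCH1 by 1.73 ± 0.15 and 1.14 ± 0.11, and phytoene synthase PSY by 0.87 ± 0.07.

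Flavonoid genes rose in 13 of 16 tested cases, with a median of 1.34, and 4 of the 20 listed genes had too few counts. F3H, a hydroxylase in the middle of the pathway, went from 6.10, 12.1 and 11.9 CPM to 76.7, 74.0 and 78.9 CPM, a rise of 2.86 ± 0.16 (edgeR adjusted p 2.17e-12). UGT78D2, which adds glucose to flavonoids, went from 5.43, 8.99 and 9.48 CPM to 63.2, 49.8 and 73.1 CPM. CHI and its helper CHIL rose by 1.55 ± 0.13 and 1.43 ± 0.12, and CHS, the entry enzyme, by 0.78. MYB12, which switches on flavonol genes, had 1 count in darkness and 31 in red light, a ratio of 32.2 with a 95% counting interval of 5.37 to 1314. DFR, LDOX, TT8 and MYB11 were not tested.

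Heat shock genes rose in 15 of 18 tested cases, out of 24 listed, with a median of 1.14 and no fall. Beside HSP70, HSP90.2 went from 178, 187 and 188 CPM to 582, 573 and 566 CPM, a rise of 1.64 ± 0.07 (edgeR adjusted p 2.00e-14). HSP90.1, the heat-inducible form, went from 3.73, 3.82 and 4.94 CPM to 55.9, 60.9 and 48.7 CPM. HSFA2, a heat shock factor, went from 1.70, 0.225 and 0.197 CPM to 19.0, 27.1 and 22.2 CPM. The coactivator MBF1C and the disaggregase HSP101 rose by 2.74 ± 0.14 and 2.79 ± 0.15. HSFA1E and BAG6 had changes of −0.12 each and were not called.

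Of 13 tested chaperone genes of the endoplasmic reticulum 3 rose, and 2 with raw library totals, beside 10.7% of all genes. BAG7, a cochaperone of this compartment, stood at 321, 371 and 152 CPM in darkness and 1129, 915 and 1401 CPM in red light, a rise of 2.04 ± 0.35 (edgeR adjusted p 1.19e-04). Its libraries vary more than those of most genes, and dark replicate 3, which stood apart, was the lowest, but without it the rise was 1.73 (adjusted p 2.52e-04). BZIP28, a stress sensor, rose by 0.68 ± 0.17, and CNX1, calnexin, by 0.35 ± 0.10, the latter not without red replicate 3 or with raw library totals. Of 16 tested genes for reactive oxygen 8 rose, among them catalase CAT2, from 482, 427 and 408 CPM to 989, 1138 and 1024 CPM, and the zinc finger gene ZAT12 (1.63 ± 0.17). Of 22 tested touch, wound and jasmonate genes (26 listed) 8 rose, 5 without dark replicate 2, with TCH2 at 0.77 ± 0.08 and MYC2 at 0.69 ± 0.10.

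**Figure D3:**
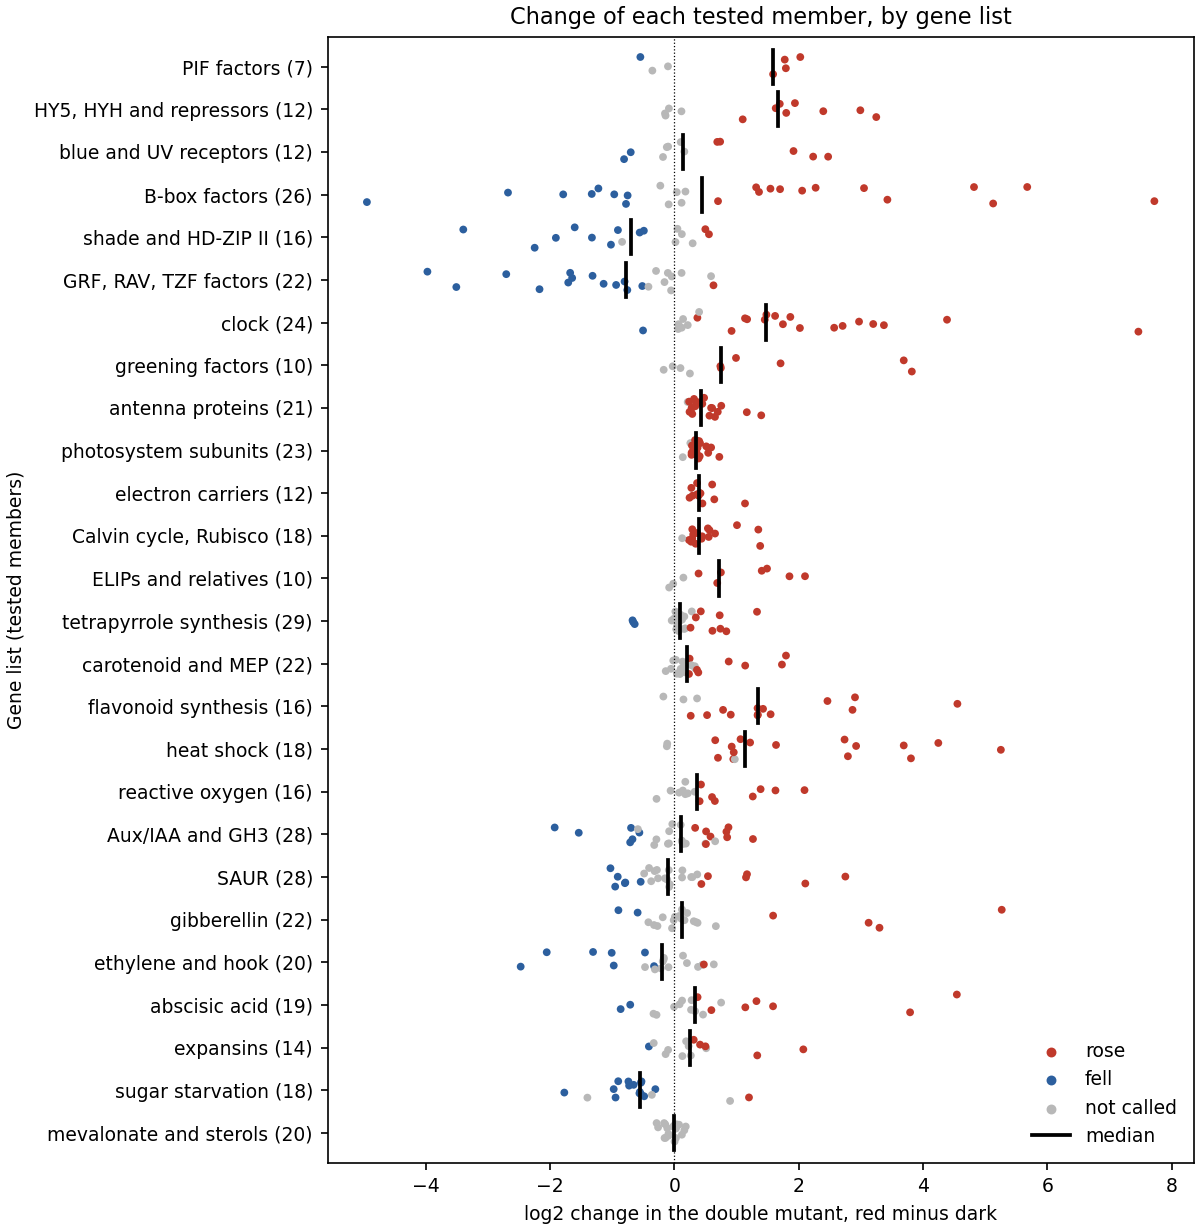
Points give the log2 change (red minus dark, double mutant) of each tested member of 26 gene lists, coloured red where it rose, blue where it fell and grey where it was not called, and black bars give the median of the list. Photosynthesis lists sit in a narrow band above 0, clock, flavonoid and heat shock lists spread far to the right, and shade, growth factor and sugar starvation lists lie to the left.

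Auxin genes were called in both directions, beside 10.7% risers and 5.27% fallers among all genes. Of 28 tested Aux/IAA and GH3 genes (30 listed) 8 rose and 6 fell. IAA29 went from 29.8, 24.0 and 25.9 CPM to 7.10, 6.37 and 7.24 CPM (−1.92 ± 0.22, edgeR adjusted p 5.46e-07) and IAA20 changed by −1.54 ± 0.16, whereas IAA28 rose by 1.26 ± 0.13 and GH3.6, which conjugates auxin, by 0.87 ± 0.11. Of 28 tested SAUR genes, which promote cell expansion, 6 rose and 6 fell. SAUR14 went from 21.4, 22.7 and 25.3 CPM to 146, 166 and 159 CPM and SAUR6 from 43.4, 51.7 and 44.6 CPM to 182, 215 and 207 CPM, while SAUR22 changed by −1.03 ± 0.13. SAUR19 to SAUR24 are close copies and their split of reads is uncertain. Of 24 tested auxin transport and synthesis genes 1 rose, a smaller share than among all genes, and 4 fell, counts that dropped to 0 and 1 without red replicate 2. Without any 1 of the 3 dark replicates, 2 of the falls passed, and the rise did not pass without red replicate 1. AUX1, an influx carrier, changed by −0.40 ± 0.08.

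In the gibberellin list 4 of 22 tested genes (27 listed) rose and 2 fell, beside 10.7% risers and 5.27% fallers among all genes. Inactivating oxidases were among the risers: GA2OX1 had 0, 0 and 0.790 CPM in darkness and 14.2, 14.7 and 11.5 CPM in red light, GA2OX8 went from 0.678, 0.899 and 0.592 CPM to 5.95, 7.75 and 5.99 CPM, and GA2OX2 rose by 1.59 ± 0.23 (edgeR adjusted p 1.10e-05). The synthesis gene GA3OX2 also rose, from 0, 1.57 and 0.197 CPM to 7.10, 5.26 and 7.24 CPM. All 4 had dark levels of at most 5.92 CPM, and 2 of them remained with a mean of at least 5 CPM as the filter. The DELLA repressor GAI changed by −0.90 ± 0.12 and GA2OX6 by −0.59, 1 of these 2 falls passing without dark replicate 2. Of 20 tested ethylene and apical hook genes (22 listed) 7 fell and 1 rose, with a median of −0.20, and 2 rose without dark replicates 1 or 3 or red replicates 1 or 2. HLS1, needed to keep the hook closed, went from 14.2, 19.1 and 11.7 CPM to 4.12, 3.60 and 3.00 CPM (−2.05 ± 0.26), and the ethylene synthesis genes ACS5 and ACS8 changed by −1.31 ± 0.26 and −2.47 ± 0.50. The F-box genes that limit ethylene signalling moved apart, EBF2 by −0.97 ± 0.10 and EBF1 by 0.47 ± 0.09.

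Of 20 brassinosteroid genes 2 rose, near the 10.7% of all genes, and 5 fell, beside 5.27% of all genes. The bHLH gene BEE3 changed by −2.25 ± 0.39 and the kinase BIN2, which restrains the pathway, by −0.47 ± 0.09 (edgeR adjusted p 2.17e-04). No rise passed without red replicate 1 or with raw library totals, and 1 did without dark replicate 3 or red replicate 2. Of 19 tested abscisic acid genes (21 listed) 7 rose and 2 fell; 4 rises passed without dark replicate 2 or red replicate 3, and 1 fall without dark replicates 1 or 2 or red replicates 1 or 3. HAB1, a phosphatase that blocks the pathway, went from 44.4, 39.3 and 42.6 CPM to 98.9, 102 and 114 CPM. CYP707A2, which degrades abscisic acid, had 2 counts in darkness and 53 in red light, a ratio of 27.6 with a 95% counting interval of 7.26 to 234. Of 18 tested cytokinin genes 6 rose and 1 fell; 3 rises passed without dark replicate 3 or red replicates 1 or 2. The response regulators ARR9 and ARR4 rose by 0.98 ± 0.11 and 0.72 ± 0.14.

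Expansin, XTH and aquaporin genes were called more often than the 16.0% of all genes, while the cellulose and wall list, given below, lay near that share. Of 14 expansins 5 rose and 1 fell, with 3 rises left without dark replicate 3 and no fall without red replicate 1. EXPA1, which loosens walls, went from 35.9, 38.0 and 32.8 CPM to 149, 154 and 145 CPM, a rise of 2.07 ± 0.09 (edgeR adjusted p 3.05e-14), and EXPA10 rose by 1.33 ± 0.13. Of 20 tested XTH genes 6 rose and 5 fell, 3 of the falls also passing without dark replicates 2 or 3 or red replicate 1. XTH32 went from 30.2, 29.7 and 29.6 CPM to 68.5, 77.3 and 75.9 CPM. Of 14 aquaporins 7 rose with a median of 0.18, and 4 did without red replicate 2 or with raw library totals. None of 20 mevalonate and sterol genes was called, and they lay between −0.29 and 0.18, although 4 fell with raw library totals and 1 without dark replicate 1.

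Genes known to be induced by darkness and lack of sugar fell. Of 18 in the list 14 fell and 1 rose, with a median of −0.56, beside 5.27% fallers among all genes. BT2, a BTB and TAZ domain protein repressed by sugar, went from 352, 303 and 314 CPM to 87.0, 108 and 89.4 CPM, a change of −1.77 ± 0.10 (edgeR adjusted p 1.46e-12). DIN1 went from 541, 565 and 543 CPM to 304, 268 and 265 CPM, and DIN10, a raffinose synthase family member, changed by −0.74 ± 0.08. The I-box was present in the windows of 9 of these 18 genes, DIN1 among them, a share picked out after it was seen. DIN9 was the 1 riser (1.20). Of 16 tested nitrogen genes 4 rose and 4 fell, with 2 falls left without dark replicate 2 or red replicate 1. The nitrate and nitrite reductases NIA2 and NIR1 rose by 0.82 ± 0.08 and 0.81 ± 0.11, while the glutamate dehydrogenases GDH2 and GDH1 changed by −0.71 ± 0.08 and −0.55 ± 0.11. Of the remaining lists, 1 of 17 seed oil and glyoxylate genes rose and 3 fell (1 fell without dark replicate 3), 3 of 14 plastid translation and RNA genes and 2 of 14 plastid import and division genes rose, beside 10.7% of all genes (in the second list 1 rose and 1 fell with raw library totals), and of 11 cellulose and wall genes 1 rose and 1 fell, the fall being lost without any 1 of the 6 libraries.

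PP2A genes were nearly flat. Of 20 tested subunits 1 rose and 1 fell, beside 16.0% called among all genes. The scaffold gene PP2AA3 went from 37.6, 39.6 and 37.7 CPM to 44.9, 51.5 and 48.4 CPM (0.33 ± 0.11, edgeR adjusted p 0.0465) and the catalytic gene PP2A-4 from 136, 125 and 125 CPM to 114, 107 and 102 CPM (−0.25 ± 0.08, adjusted p 0.044). Neither call held without red replicate 2 (0.28 and −0.25, adjusted p 0.182 and 0.106), nor without any 1 of the 3 dark replicates or red replicate 3, and other alternatives lost them too. The residual B''α transcript of the mutant changed by −0.47 ± 0.23, which was not called (adjusted p 0.228).

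Set against the wild type, most genes called in the double mutant were called there too. In the wild type 2819 genes were called (15.2%), and 2137 were called in the same direction in both genotypes, which is 72.2% of the mutant's calls and 75.8% of the wild type's. None was called in opposite directions, and 2917 of the mutant's 2958 calls had the same sign in the wild type. Across all 18487 genes Pearson's r between the log2 changes of the 2 genotypes was 0.80, a description over genes, which are not independent replicates and share 1 estimate of spread. The test of the difference between the responses called no gene (0.0%) by edgeR, with a smallest adjusted p of 0.491, and DESeq2 called 1. By edgeR 613 genes had an unadjusted p under 0.05 for the difference, a smaller share than the 0.05 that would pass if none differed. The median standard error of that difference was 0.25 on the log2 scale, which bounds what could be detected. A miss of the threshold does not show equal responses.

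HY5 rose by 2.40 in the mutant and 2.39 in the wild type, a difference of 0.01 ± 0.14. For F3H the difference was 0.00 ± 0.26, for CCA1 −0.01 ± 0.12, for HSP70 −0.04 ± 0.18 and for GRF7 −0.05 ± 0.28. The list median for HY5 and its repressors was 1.66 in the mutant and 1.61 in the wild type, and for the clock 1.47 and 1.54. For sugar starvation genes it was −0.56 with 14 falls in the mutant and −0.38 with 9 falls in the wild type, a difference in counts that was not itself tested, while no member was called in the difference.

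The 10 genes with the smallest p for the difference are given as values, none of them called. SPX1, a sensor protein of phosphate supply, went from 15.3, 14.2 and 10.7 CPM to 145, 114 and 132 CPM in the mutant, and from means of 15.8 to 69.8 CPM in the wild type, a difference of 1.16 ± 0.22 (edgeR adjusted p 0.491; DESeq2 adjusted p 0.0299). PS2 (AT1G73010), a pyrophosphate-specific phosphatase, had 0.339, 0.674 and 0.987 CPM in darkness and 5.04, 6.65 and 5.74 CPM in red light in the mutant against means of 1.78 and 1.69 CPM in the wild type. SRG3 (AT3G02040), a glycerophosphodiester phosphodiesterase that works in phosphate shortage, went from 18.0, 22.9 and 27.4 CPM to 62.3, 44.3 and 54.9 CPM against means of 24.5 and 28.8 CPM. BAG7 had wild type means of 285 CPM in darkness (SD 182.5) and 287 CPM in red light (SD 156.2), so its wild type libraries varied widely within each condition. The difference between the responses was 2.02 ± 0.48. The remaining genes were DIN2 (−0.75 ± 0.18), AT5G30495 (−1.13 ± 0.28), COR413-PM1 (−0.36 ± 0.09), AT4G04190 (2.53 ± 0.67), ZIFL1 (−0.67 ± 0.18) and AT3G16350 (−0.94 ± 0.26). Of the 10 tested phosphate genes (13 listed) 3 rose in the mutant, beside 10.7% of all genes. These were SPX1, the phosphatase PAP17 and SQD2, the last not without dark replicate 2 or with raw library totals.

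**Figure D4:**
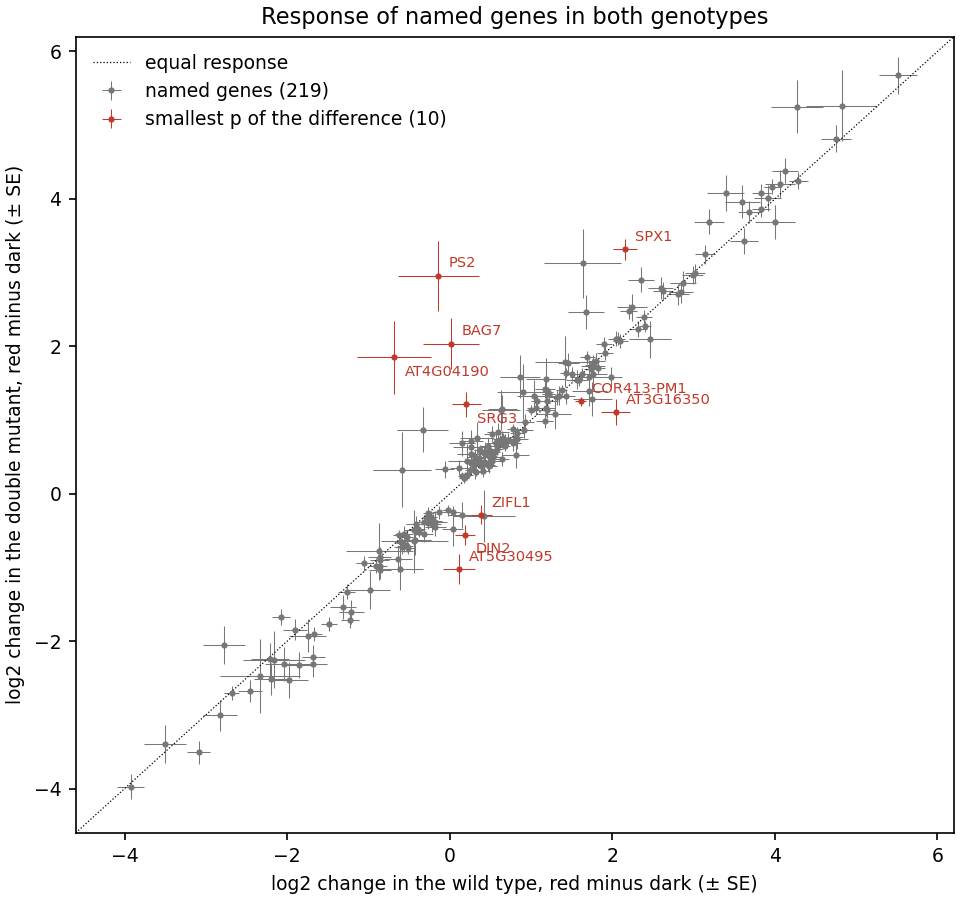
Each point is a named gene, with its log2 change in the wild type and in the double mutant (± SE) for 229 genes whose difference had a standard error under 1, and the dotted line marks equal responses. Most lie along the line from GRF7 at −3.97 to BBX32 at 5.67, and the 10 genes with the smallest p for the difference, in red, lie farther from it relative to their errors without being called.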

How the data were processed

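The authors deposited whole-number counts per gene and library. Per the labels' protocols these are 3′ tag libraries of total RNA. FastQC, HISAT2, HTSeq, edgeR and TAIR10 are named in the submitters' processing notes. The sources used here give no versions, strand setting or rule for multiply matching reads, and 5 HTSeq summary lines were left out. One quasi-likelihood model over 12 libraries with a term per group was fitted in edgeR 4.0.16 (R 4.3.3), after filterByExpr with a minimum count of 10 and TMM scaling. Genes were called at a Benjamini-Hochberg adjusted p under 0.05. CPM uses TMM-scaled totals and is not divided by length, so levels are compared only within a gene. SE is the log2 change over the square root of F, an approximation. For BBX32 it was 0.253 in the mutant, 0.235 in the wild type and 0.53 for the difference. The steps were tested on simulated counts. Named genes are the 12 largest rises and 12 largest falls with no overlap and mean log2 CPM from 3 up, the 6 most abundant called each way, the 5 smallest p and largest change of each list, the 10 smallest p between genotypes, and the 2 targeted genes. Others were named after their values were seen. The 49 lists, members and rule were chosen with earlier results of these data known. Alternatives were DESeq2 1.42.0, limma-voom (limma 3.58.1), other scaling and filters, a replicate block, fewer libraries and glmTreat. The promoter window was set after the data were seen. Python 3.11.15 with pandas 2.3.3 and matplotlib 3.10.9 made the tables.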

Additional observations from a re-analysis of the deposited data

How the results depend on the processing

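For the red light response of the double mutant, the count of 2958 genes ranged from 2364 (without red replicate 1) to 3183 when 1 of the 12 libraries was left out, and was within 1.5 times under the other alternatives. With raw library totals 2342 genes fell against 975. Changes of 1 or more (log2) were called for 940 genes, and for 380 by glmTreat, which tests against that size. For the difference between the genotypes, where edgeR called no gene, DESeq2 called 1, the omission of the filter on low counts 28, the omission of the 2 dark libraries that stand apart 2 (DIN2 and BAG7), and leaving out 1 library 0 to 3 (3 without wild type dark replicate 1). Of 235 named genes, 220 had a value in all 22 settings, and 188 of these kept their direction and call in each. The other 15 dropped out under at least 1 filter or choice of libraries, and 13 of them kept both where they had a value. None was called in opposite directions. The replicate numbers did not clearly pair libraries (correlations of same-numbered mutant libraries 0.0625, −0.0121 and 0.145, of others −0.139 to 0.0932). With the replicate block over 12 libraries 1890 genes rose and 890 fell (2780 in all). Within the 6 mutant libraries alone 2157 rose and 1104 fell with the block, against 1934 and 911 without it. Of 98 list counts 58 stayed within 1.5 times in every setting, and the medians of 11 of 49 lists changed sign with raw totals. Depth limits genes under about 1 CPM. Without molecular identifiers PCR copies count as reads.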
